A study of Mus musculus with 4 samples.

Results

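The Snrpn imprinted cluster of central mouse chromosome 7 was described through 7 genes, Atp10a, Ube3a, Snrpn, Ndn, Magel2, Mkrn3 and Peg12, of 22691 genes in the deposited table. They were taken by symbol and ordered by start, and all 7 had a value in both genotypes, as did 20606 genes of the whole table. Snrpn shared its row with Snurf, so that 1 value stands for both. Trimethylation of lysine 27 of histone H3 (H3K27me3) was measured by chromatin immunoprecipitation and sequencing (ChIP-seq) in mouse embryonic fibroblasts of female C57BL6/J fetuses at stage E13.5. WT cells carried Smchd1 +/+ and MD1 cells Smchd1 MD1/MD1, which the series describes as deficient for SmcHD1. Each genotype had 1 ChIP library, made with the mouse monoclonal antibody CMA323, and 1 input library. With no second sample of either genotype, the genotypes could not be compared by a test, and every difference below has no replicate check. The number of fetuses behind each sample is not stated.

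H3K27me3 is written by Polycomb repressive complex 2 and marks silent genes, above all at CpG-rich promoters of developmental regulators. The cluster is the mouse counterpart of the human Prader-Willi and Angelman region. Snrpn, Ndn, Magel2, Mkrn3 and Peg12 are expressed from the paternal chromosome, under an imprinting centre at the Snrpn promoter that is DNA-methylated on the maternal one. Ube3a is expressed from the maternal chromosome in neurons, where a long antisense transcript from the Snrpn side silences the paternal copy, and from both in most other cells. Atp10a is reported as maternally expressed in some tissues. SmcHD1, a noncanonical SMC-family protein, is known to act on the inactive X chromosome and on some imprinted clusters, this one among them. A value in these cells averages both parental chromosomes, which were not told apart.

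The 6 upstream windows below show how unlike in CpG content the stretches just before these gene starts are. Each is the 250 bases before a RefSeq gene start (build GRCm38.p6), read 5′ to 3′ on the gene's strand, with CpG dinucleotides in capitals. Sequence past the start is left out, so a CpG-rich stretch there would not be seen. The windows set the CpG-dense one of Ube3a, the member with the least mark in WT, beside that of the start Snrpn shares with Snurf. Those of the 4 neighbours Ndn, Magel2, Mkrn3 and Peg12 follow. Judged by its distance from Ndn, the measured Snrpn interval begins farther upstream than the start shared with Snurf.
Ube3a (chr7:59228500-59228749, plus strand): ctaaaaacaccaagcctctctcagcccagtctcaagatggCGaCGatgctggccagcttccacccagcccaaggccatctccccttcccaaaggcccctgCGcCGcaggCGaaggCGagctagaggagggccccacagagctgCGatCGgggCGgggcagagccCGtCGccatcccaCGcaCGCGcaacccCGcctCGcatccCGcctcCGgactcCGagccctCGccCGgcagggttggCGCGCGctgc
Snrpn (chr7:60005200-60005449, minus strand): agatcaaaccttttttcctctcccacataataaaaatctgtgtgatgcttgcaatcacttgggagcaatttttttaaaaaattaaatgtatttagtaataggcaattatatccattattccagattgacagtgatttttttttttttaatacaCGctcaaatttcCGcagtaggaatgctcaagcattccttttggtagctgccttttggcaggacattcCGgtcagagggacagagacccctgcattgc
Ndn (chr7:62348027-62348276, plus strand): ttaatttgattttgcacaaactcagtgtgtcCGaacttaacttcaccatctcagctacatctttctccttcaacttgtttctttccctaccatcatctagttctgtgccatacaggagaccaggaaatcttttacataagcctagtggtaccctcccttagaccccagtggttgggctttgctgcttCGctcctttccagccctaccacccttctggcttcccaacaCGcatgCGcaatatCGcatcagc
Magel2 (chr7:62376729-62376978, plus strand): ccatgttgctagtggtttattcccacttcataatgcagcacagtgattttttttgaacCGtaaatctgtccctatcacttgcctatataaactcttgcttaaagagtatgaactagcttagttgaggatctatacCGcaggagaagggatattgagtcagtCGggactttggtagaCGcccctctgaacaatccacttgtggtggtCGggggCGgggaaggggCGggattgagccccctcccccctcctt
Mkrn3 (chr7:62420154-62420403, minus strand): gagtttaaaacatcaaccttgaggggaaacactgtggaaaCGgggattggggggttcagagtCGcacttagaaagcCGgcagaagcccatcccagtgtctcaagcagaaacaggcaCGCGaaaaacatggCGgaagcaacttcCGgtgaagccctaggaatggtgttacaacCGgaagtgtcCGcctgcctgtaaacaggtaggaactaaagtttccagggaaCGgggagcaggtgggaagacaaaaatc
Peg12 (chr7:62464511-62464760, minus strand): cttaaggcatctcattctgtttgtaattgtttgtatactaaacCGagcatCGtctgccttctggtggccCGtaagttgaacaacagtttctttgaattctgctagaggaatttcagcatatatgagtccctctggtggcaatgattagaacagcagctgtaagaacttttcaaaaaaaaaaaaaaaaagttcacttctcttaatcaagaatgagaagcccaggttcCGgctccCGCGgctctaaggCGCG
Ube3a had 24 CpGs in its window, a number reached by 12.0% of the 32817 windows of all genes in the RefSeq table. Mkrn3 had 10, Peg12 had 8, Magel2 had 7 and Ndn had 5, around the median of 6 over all windows. The Snrpn window shared with Snurf had 3, and at least as many were found in 70.9% of all windows. Atp10a, whose window is not printed, had 14. Of the 4 starts listed for Snrpn, the 3 farther upstream had 2, 3 and 4 CpGs. The letters GCATGCG or their reverse complement CGCATGC, which overlap in all these cases, were found in those 3 Snrpn windows and in that of Ndn, and in 3.01% of all windows. These 4 windows belong to 2 of the 7 members. The 3 Snrpn windows resemble one another over long stretches, so they are not separate occurrences. Magel2 and Peg12, whose values differed in opposite directions between the genotypes, had 7 and 8 CpGs. Whether CpG count goes with the difference was not tested.

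The deposited values are enrichments on the log2 scale. Differences are MD1 minus WT, with 1 standing for 2-fold, and genes past a 2-fold limit either way were counted. In MD1 the mark was lower by 2-fold or more at 4 members, Ube3a, Ndn, Mkrn3 and Peg12, and higher by that much at 1, Magel2. Over the 19836 autosomal genes with both values 20.4% passed the limit downwards and 1.61% upwards. The median over the members was -0.88 in WT and -1.88 in MD1, with a median difference of -1.06, whereas the autosomal medians were -0.78 and -0.90, with a median difference of -0.27. Low genes tended to be lower still in MD1, with exceptions, the slope of MD1 on WT being 1.25 over autosomal genes. Each difference was therefore also taken relative to a median over 500 autosomal genes, those closest in mean level among genes of the same length quartile, and is called level-matched. By that measure 2 members were lower (Mkrn3 and Peg12) and 1 higher (Magel2), against 3.41% and 3.16% of autosomal genes, and the members' median difference became -0.18. With 1 added to each linear ratio before the log2, which damps low values, no member passed the limit downwards and Magel2 still passed it upwards.

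**Figure D1:**
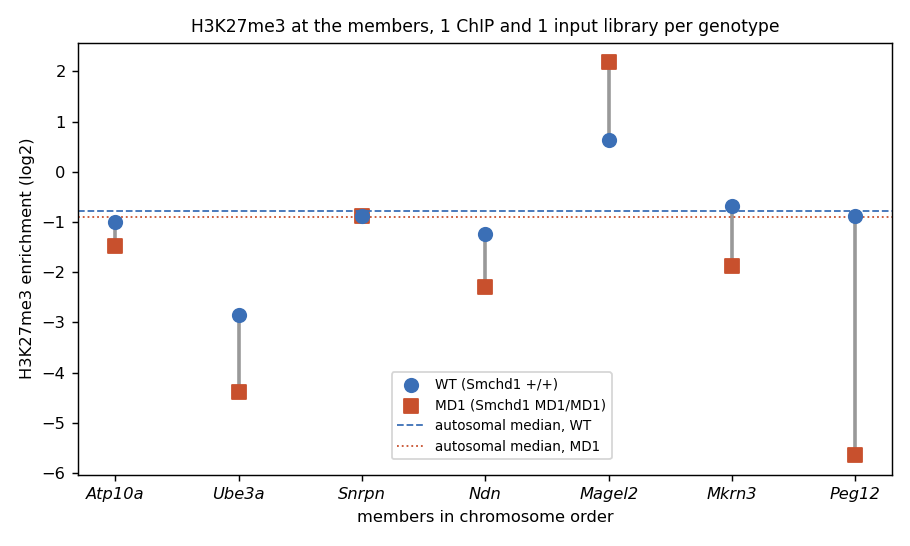
H3K27me3 enrichment (log2) of the 7 members in chromosome order, with 1 value per genotype (circles WT, squares MD1) and the autosomal medians as horizontal lines. Magel2 is above both lines and higher in MD1, the 2 values of Snrpn coincide, and Peg12 drops from -0.87 to -5.65.

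The members span 3.70 Mb and differ in size. Atp10a, Ube3a and Snrpn are long genes in the top length quartile, and Ndn, Magel2, Mkrn3 and Peg12 are short genes packed into 116 kb at the far end, with 27.1, 36.0 and 41.7 kb between neighbours. Between Snrpn and Ndn lie 2208 kb. Large differences were more frequent among short genes in this table, since in the shortest length quartile 22.2% of autosomal genes passed the 2-fold limit downwards and 5.36% upwards, against 15.3% and 0.121% in the longest. The SD of the level-matched difference over autosomal genes was 0.86 in the shortest and 0.28 in the longest quartile. Positions below are in mm9, with the first base counted as 1.

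Peg12, a gene of the FRAT family, whose proteins bind the kinase GSK3, showed the largest difference of the cluster. Peg12 (chr7:69606757-69609396, minus strand) went from -0.87 in WT to -5.65 in MD1, which is a difference of -4.77, or 27.3-fold lower. This was the lowest of all 19836 autosomal differences. In WT the gene stood at percentile 48.5 of autosomal genes and in MD1 at percentile 0.80. Relative to genes of like level and length the difference was -3.54, rank 2 from the lowest among autosomal genes, and below the 5th percentile of its 500 matched genes, at -2.92. The value is not firm: each deposited value can be written as the log2 of a fraction of whole numbers, shifted by a constant of its genotype, and for Peg12 that ratio in lowest terms was 9 to 17 in WT and 1 to 49 in MD1, so the MD1 value may rest on as little as 1 ChIP read. A further 125 of the 1123 autosomal genes with an MD1 ratio of 1 to a whole number had a larger whole number than 49. With 1 added to each linear ratio the difference was -0.60.

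Mkrn3 and Ndn also stood lower in MD1, each by little over 2-fold. Mkrn3, which encodes a makorin RING-finger ubiquitin ligase that restrains the onset of puberty in humans, lies at chr7:69562479-69565025 on the minus strand. It went from -0.67 in WT to -1.88 in MD1, a difference of -1.21 (2.31-fold lower). Ndn (chr7:69493163-69494813, plus strand) encodes necdin, a MAGE-family protein of postmitotic neurons. It went from -1.24 to -2.29, a difference of -1.06 (2.08-fold lower). Both differences lay within the middle range of matched genes, whose 5th percentiles were -1.69 for Mkrn3 and -1.72 for Ndn, with SDs of 0.96 and 0.97. Relative to those genes Mkrn3 differed by -1.07 and Ndn by -0.77. Centred on the autosomal median, the differences were -0.94 for Mkrn3 and -0.79 for Ndn, so that Mkrn3 was no longer past the 2-fold limit under centring, nor Ndn under either measure. In lowest terms the MD1 ratios were 5 to 18 for Mkrn3 and 5 to 24 for Ndn.

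Magel2, between Ndn and Mkrn3, went the other way. It encodes a MAGE-family protein that partners a ubiquitin ligase in endosomal sorting and lies at chr7:69521865-69526526 on the plus strand. Magel2 went from 0.64 in WT to 2.18 in MD1, a difference of 1.54 (2.91-fold higher). It moved from percentile 78.0 to percentile 97.1 of autosomal genes, and its difference ranked 92 from the highest among them. The level-matched difference was 1.42, above the 95th percentile of its matched genes at 0.87, with an SD of 0.53 among them. Its ratios in lowest terms were 59 to 39 in WT and 51 to 11 in MD1. Common factors are divided out in such ratios, so the numbers need not be read counts and cannot be compared between the genotypes. Under each of the other ways of computing it, the difference stayed between 1.11 and 1.81. Those ways start from the same 2 values, so they do not show how firm a ratio with a second number of 11 is.

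**Figure D2:**
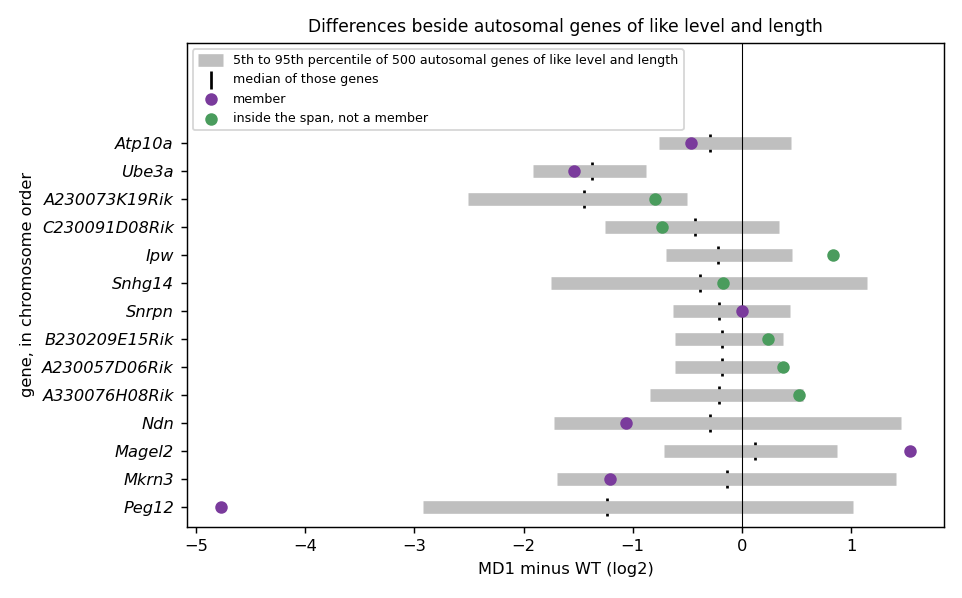
Difference MD1 minus WT (log2) of the 7 members and of the 7 other listed genes inside their span (points), beside the 5th to 95th percentile (grey bar) and median (tick) of 500 autosomal genes of like mean level and length. Peg12 lies to the left of its bar. Magel2, Ipw and, by little, A230057D06Rik lie to the right of theirs.

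The 4 neighbours thus held 3 genes past the 2-fold limit downwards and 1 upwards within 116 kb. Relative to genes of like level and length, 2 were lower and 1 higher, as were 498 and 474 (9.56%) of the 4959 autosomal genes of the shortest length quartile. In WT their values lay between -1.24 and 0.64, and in MD1 between -5.65 and 2.18. Magel2 was the most enriched member in both genotypes. In WT it was followed by Mkrn3, Peg12, Snrpn, Atp10a, Ndn and Ube3a. In MD1 the order after Magel2 was Snrpn, Atp10a, Mkrn3, Ndn, Ube3a and Peg12, so that Peg12 went to last place. Peg12 and Snrpn, at -0.87 and -0.88, had nearly the same WT value. Without replicates, neighbours in either order were not shown to differ.

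At Snrpn, which encodes the spliceosomal protein SmN, the genotypes gave the same value. The row shared with Snurf (chr7:67127387-67285105, minus strand) had -0.88 in WT and -0.89 in MD1, which differ by -0.0029, close to the autosomal median level in both. Relative to genes of like level and length the difference was 0.20, with an SD of 0.34 among them. In lowest terms its ratios were 846 to 1607 and 854 to 1543, the largest numbers of the paternally expressed members. The interval covers 157719 bp. If reads were counted over all of it, which is not stated, the value averages the imprinting centre at the promoter with all the rest.

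Ube3a carried little mark in either genotype. It encodes the ubiquitin ligase whose loss in neurons causes Angelman syndrome and lies at chr7:66484120-66562097 on the plus strand. The value of Ube3a was -2.86 in WT and -4.40 in MD1, at percentiles 7.09 and 5.75 of autosomal genes. The difference was -1.54 (2.90-fold lower). Genes of like level and length had a median difference of -1.37, and the level-matched difference was -0.17 with an SD of 0.33 among matched genes. Its interval holds that of A230073K19Rik, and ChIP reads carry no strand, so these genes can share reads. Atp10a (chr7:65913572-66084796, plus strand), encoding a phospholipid flippase, went from -1.01 to -1.48. Its difference of -0.47 was -0.18 relative to genes of like level and length, with an SD of 0.37. The level-matched differences of Ube3a and Atp10a were thus smaller than the SD of their matched genes.

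Inside the span the table listed 7 further genes, all with values in both genotypes, and none of these passed the 2-fold limit. Their median difference was 0.24, against -0.27 over autosomal genes. Of the 7, 4 were higher in MD1, against 6150 of the 19836 autosomal genes. Ipw, a noncoding RNA gene named for being imprinted in the Prader-Willi region, went from -1.49 to -0.66, a difference of 0.83 (1.78-fold higher). Relative to genes of like level and length the difference at Ipw was 1.06, past the 2-fold limit, which 0.343% of autosomal genes in its length quartile passed upwards by this measure. The interval of Ipw (chr7:66874528-66934248, minus strand) is 59721 bp long, and its ratios in lowest terms were 186 to 539 and 330 to 509. The 3 long noncoding genes between Snrpn and Ndn were also higher in MD1. B230209E15Rik went from -0.89 to -0.65, A230057D06Rik from -0.93 to -0.56 and A330076H08Rik from -1.55 to -1.03. Of these, A230057D06Rik, with a difference of 0.38, stood above the 95th percentile of its matched genes at 0.35. The interval named Snhg14, a part of the snoRNA host and Ube3a antisense transcript, went from -1.87 to -2.05. C230091D08Rik, listed as a synonym of Snhg14 in the RefSeq table, went from -1.55 to -2.29, and A230073K19Rik from -3.16 to -3.95. In all, 1 of the 7 members lay below and 1 above the matched range, and 2 of the 7 other genes lay above it, against 5.19% and 4.98% of autosomal genes. Snhg14 and Ipw adjoin tandem repeats of snoRNA genes, and how reads with several matches were counted is not given in the sources used here.

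**Figure D3:**
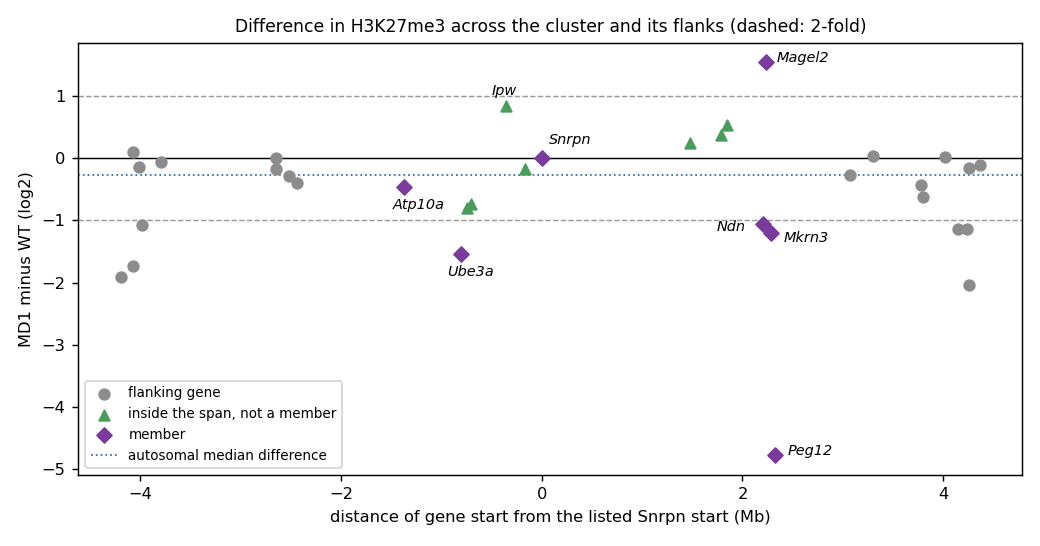
Difference MD1 minus WT (log2) of members (diamonds), other listed genes inside their span (triangles) and 20 flanking genes (circles) against the distance of each gene's start from the listed start of Snrpn, in Mb. The flanking genes range from -2.03 to 0.10, Magel2 is the highest point and Peg12 the lowest.

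The flanks were taken as the 10 listed genes with both values on each side. Of these 20 genes, 6 passed the 2-fold limit downwards and none upwards, against 20.4% and 1.61% of autosomal genes. The median difference was -0.27, the same as over autosomal genes. Relative to genes of like level and length none passed the limit, and none lay outside the 5th to 95th percentile of its matched genes. The intervals of 8 of the 20, Cyfip1 and Nipa2 among them, overlap another listed gene. On the Atp10a side, the GABA-A receptor subunit genes Gabra5 (0.50 in WT and 0.21 in MD1) and Gabrg3 (0.03 and 0.04) differed by less than 2-fold. Gm9962 went from 0.69 to 0.52, and Oca2, encoding a melanosome transporter, from 0.12 to 0.06. Farther out on that side, 3 genes with little mark were past the limit downwards. Cyfip1, encoding a regulator of actin and translation, went from -2.73 to -4.64, the magnesium transporter gene Nipa2 from -2.88 to -4.61, and the ubiquitin ligase gene Herc2 from -2.51 to -3.58. On the Peg12 side the nearest genes were the nicotinic receptor subunit gene Chrna7 (-0.67 in WT and -0.93 in MD1), the deubiquitinase gene Otud7a (0.12 and 0.15), the transcription factor gene Klf13 (-2.52 and -3.15), E030018B13Rik (-2.46 and -2.89) and the cation channel gene Trpm1 (0.11 and 0.14). The 3 lower genes there also had little mark in WT. They were Mtmr10, a myotubularin-family gene (-2.59 and -3.73), the DNA repair nuclease gene Fan1 (-1.77 and -2.90) and Mphosph10, encoding a ribosomal RNA processing factor (-2.41 and -4.44).

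**Figure D4:**
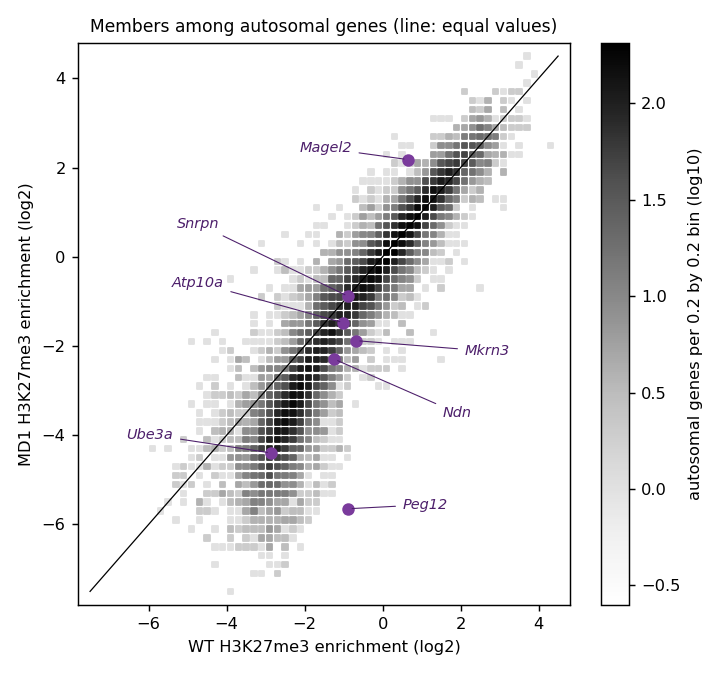
MD1 against WT enrichment (log2) of the 7 members (points) over the density of 19836 autosomal genes (grey squares of 0.2 by 0.2, log10 scale), with the line of equal values. Ube3a, Atp10a and Snrpn lie in the dense band, Magel2 lies above it and Peg12 far below.

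For reference, 12 fibroblast genes had median values of -2.87 in WT and -3.98 in MD1, and 8 ubiquitously expressed genes -2.89 and -4.25. Ube3a stood at that level. At the other end, 10 neuronal genes had medians of 1.22 and 1.20, and 12 known Polycomb targets 2.19 and 1.78. Magel2 was below the medians of these lists in WT and above both in MD1, while the other members lay between the extremes in WT. RNA was not measured, so the labelled cell type and the loss of SmcHD1 were not checked by expression. The autosomal genes closest to Magel2 in the plane of both values were Hoxb3 (0.70 in WT and 2.15 in MD1), Hoxb6 (0.57 and 2.11) and Hoxb5 (0.85 and 2.16), regulators of body axis identity, at distances of 0.064, 0.097 and 0.21 log2 units. Closest to Peg12 were Dda1 (-1.40 and -5.35), Hilpda (-1.45 and -5.39) and Oaz1 (-1.31 and -5.12), at 0.60, 0.63 and 0.68. Likeness over 2 values is a description of these libraries.

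Elsewhere in the genome, 52 of 55 genes of other imprinted clusters had both values. Of these 52, 3 passed the 2-fold limit downwards and 4 upwards, against 20.4% and 1.61% of autosomal genes. Their median difference was 0.04. Below the 5th percentile of matched genes were 2 and above the 95th were 10, against 5.19% and 4.98% of autosomal genes. The Snrpn cluster's median of -1.06 was below those of the Kcnq1 domain (-0.06, 10 genes), the Igf2r cluster (0.10, 4 genes), the Dlk1 cluster (0.56, 6 genes), the Peg10 and Mest domains (-0.07, 10 genes) and smaller loci (-0.07, 22 genes), a difference that was not tested. Relative to genes of like level and length the medians were -0.18 for the Snrpn cluster and 0.15 for the 52 genes. The 4 largest absolute differences among the 52 were at the tetraspanin gene Cd81 (-2.24 in WT and -4.83 in MD1), the noncoding RNA gene H19 (-0.40 and 1.36), the retrotransposon-derived gene Rtl1 (-0.40 and 0.94) and Mest, encoding a hydrolase-like protein (-1.04 and 0.14). Past the 2-fold limit were also H13 (-2.96 and -4.02), Osbpl5 (-2.09 and -3.10) and the cell cycle inhibitor gene Cdkn1c (1.08 and 2.12). The intervals of Cd81, Rtl1, Mest and H13 overlap another listed gene and can share its reads. None of the 52 reached the difference of Peg12, and H19 exceeded that of Magel2.

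**Figure D5:**
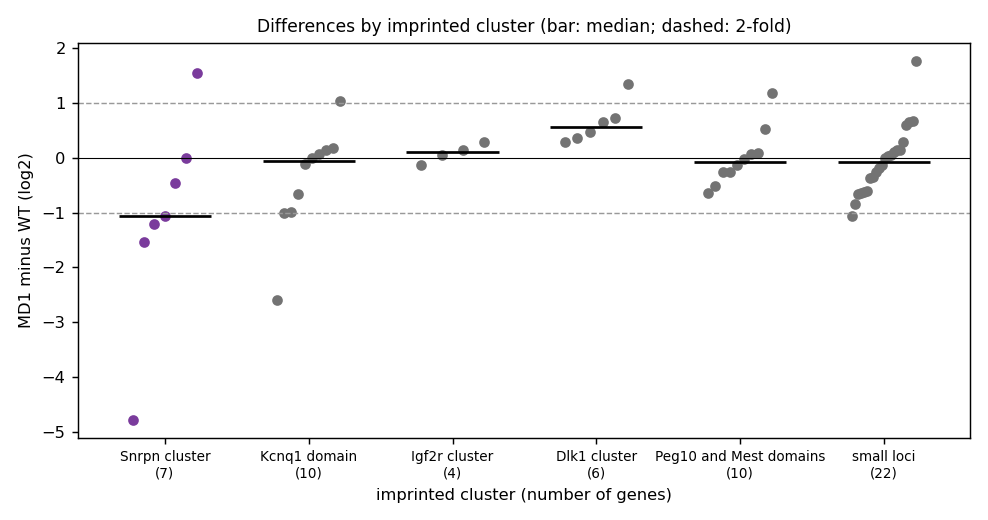
Difference MD1 minus WT (log2) of each gene (points) by imprinted cluster, with the median as a bar and the 2-fold limits dashed. The Snrpn cluster has the widest range, from -4.77 to 1.54, but its lower end is Peg12 alone, whose value is not firm. Its next lowest member is Ube3a at -1.54, and the Kcnq1 domain runs from -2.59 to 1.04. The 6 genes of the Dlk1 cluster are all above 0, against 6150 of the 19836 autosomal genes.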

How the data were processed

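H3K27me3 ChIP and input libraries of 1 WT and 1 MD1 sample each were processed by the authors into 1 table of genes, deposited with a log2 enrichment per genotype, per the file headers. The log2 scale was read from the values (-5.91 to 4.31 in WT and -7.41 to 4.45 in MD1). The build is mm9, per the submitters' processing notes. The sources used here name no aligner, read counting, filter or denominator. Of the WT values 99.98% and of the MD1 values 99.95% were, after subtracting 1 constant per genotype, the log2 of a fraction of whole numbers up to 20000 (relative tolerance 1e-12). Depth is unknown and no counting interval is given. Members and lists were chosen with earlier results of these data known. All 7 members, all listed genes in their span, the 5 nearest flanking genes per side and any past the 2-fold limit, the 4 imprinted genes with the largest absolute difference, and the 3 genes nearest to the lowest and the highest member were named. H13, Osbpl5 and Cdkn1c complete counts. A flanking gene that this rule names is not reported here. Level matching left out the gene itself and used 4 length quartiles. It was tried on simulated data in which each gene kept its level. That could not show what happens when a change moves the mean level and so the matched genes. Peg12 differed by -3.54 when matched by mean level and by -4.75 when matched by WT value. Sequences are RefSeq (GRCm38.p6), matched by symbol for all 7 members. Python 3.11.15, numpy 2.4.6 and pandas 2.3.3 were used. Alternatives were centring, offsets, matching, a level filter, other limits and leaving out overlapping genes.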

Additional observations from a re-analysis of the deposited data

How the results depend on the processing

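No paired analysis was possible because each genotype had 1 ChIP and 1 input library. The count of 4 members at least 2-fold lower became 2 when centred on the autosomal median (Ube3a and Peg12), level-matched by mean level or by WT value (Mkrn3 and Peg12), or kept to the 5 members at or above the 25th percentile of mean level (Ndn and Mkrn3). It became 1, Peg12, for the residual of MD1 on WT and at a 3-fold limit, and 0 with an offset of 1. The 1 higher member became 0 at the 3-fold limit. The median difference of the members, -1.06, moved to -0.14 with an offset of 1, -0.18 and -0.23 when level-matched by mean level and by WT value, -0.52 for the residual and -0.47 with the level filter. Without Peg12, an alternative chosen after seeing the data, it was -0.76, as it was without Ube3a, the 1 member that overlaps another listed gene. For single members 45 alternative values moved by less than the SD of matched genes and 8 by more. Some of the 45 could not move, because the level filter and leaving out overlapping genes keep a single member's difference as reported. No difference of at least 2-fold changed sign.

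The 6 lower flanking genes became 3 when centred and at the 3-fold limit, 1 for the residual and with the level filter, and 0 with an offset of 1 or level-matched by either value. Of other imprinted genes, the 3 lower became 1 when centred, with an offset of 0.01, level-matched by either value, for the residual, at 3-fold and without overlapping genes, 0 with an offset of 1 or the level filter, and 11 at 1.5-fold. The 4 higher became 1 with an offset of 1 and at 3-fold, 2 without overlapping genes and 9 at 1.5-fold. Why these counts moved was not tested. The depth is unknown, so what it limits could not be stated gene by gene.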

Other observations

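Relatives of the members outside the imprinted cluster were listed by gene family. All 11 had values in both genotypes, with a median difference of -0.54. Of these, 3 (Ube3c, Ndnl2 and Maged1) passed the 2-fold limit downwards, as did 20.4% of autosomal genes. Relative to genes of like level and length, only Maged1, which is not autosomal, passed it, with Ube3c at 0.09 and Ndnl2 at -0.55. Snrpb, which encodes the SmB protein that SmN resembles, went from -3.17 in WT to -4.01 in MD1. The FRAT-family genes Frat1 (1.37 and 1.73) and Frat2 (0.58 and 0.04) differed by less than 2-fold. Mkrn1 (-1.06 and -1.33) and Mkrn2 (-2.33 and -2.72) differed by less than 2-fold. Of the MAGE-family relatives of Ndn and Magel2, X-linked Maged1 went from 1.11 to -0.91. Ndnl2 (-2.62 and -4.49) overlaps another listed gene, and its MD1 fraction in lowest terms was 1 to 22. Ube3b (-2.47 and -3.42) and Ube3c (-2.58 and -3.62) stood close to Ube3a in WT. The flippase gene Atp10b (0.31 and 0.43) and its relative Atp10d (-0.80 and -1.08) differed by less than 2-fold. Atp10d is annotated in RefSeq as a transcribed pseudogene.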
